A study of Rattus norvegicus with 9 samples.

Results

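The genes described here encode the extracellular matrix: collagens, laminins, nidogens, fibrillins, fibulins, lysyl oxidases and a named set of 15 matrix glycoproteins and proteoglycans. They were taken by symbol from the annotation of the Affymetrix Rat Genome 230 2.0 array, which gave 79 of the 14217 genes that have a probe set of their own on it. Membership was decided by symbol and not by a measured value, but the set was chosen with earlier results of these data known. The matrix is the protein scaffold outside cells. Fibrillar collagens form its cables after trimming, hydroxylation and cross-linking by lysyl oxidases. Type IV collagens, laminins, nidogens and perlecan form basement membranes, the thin sheets beneath epithelia and around vessels, and in the eye the inner limiting membrane on which the neural retina rests. Fibrillins, fibulins and elastin build elastic fibers, and the glycoproteins and proteoglycans link these networks to cells. In a normal retina most fibrillar collagen lies outside the neural layers, in the vitreous, the vessel walls and the sclera.

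RNA was measured on 9 arrays in 3 groups of 3 biological replicates. rESC-RPC2 and rESC-RPC1 are retinal progenitor-type cells made from the rat embryonic stem cell (rESC) line DA8-16 (DA rats) as aggregates with Matrigel, itself a basement membrane extract, and the Wnt inhibitor IWR-1e, with fetal bovine serum from day 8. Before that, the line was kept on inactivated feeder cells (mouse embryonic fibroblasts), which were removed for differentiation. Whether any feeder cells remained was not tested. Aggregates were dissociated and plated on day 14 for rESC-RPC2 and on day 10 for rESC-RPC1, and both were harvested on day 16. The plates of rESC-RPC1 were coated with poly-D-lysine and Matrigel, and no other coat is named for rESC-RPC2. P-RPC are cells from retinal tissue of newborn SD rats (postnatal day 1), freshly dissociated with papain. They are not described as sorted, so they may hold every cell type of that tissue and of adjoining eye tissue. Both rESC-RPCs rest on 1 stem cell line, and whether animals were pooled for P-RPC is not given in the sources used here. Strain, and culture against tissue, cannot be told apart from the cell type in any comparison with P-RPC. rESC-RPC1 also changed to N2 medium on day 14. Between the rESC-RPCs, neither that medium nor the time on a Matrigel coat can be told apart from the length of adherent culture. Per the methods, the RNA came from 3 independent experiments. Whether each was a litter or culture of its own is not stated, and p-values measure the spread between these samples.

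Values are MAS 5.0 signals on a linear scale, which the authors had scaled to a common trimmed mean on every array (500.2). Probe sets of different genes bind with different strength, so a signal is compared only with the same gene's signal in other samples. The median of all values, a signal of 123 (log2 6.94), was taken as the detection threshold, and genes that reached it on 3 or more of the 9 arrays were tested. A gene was called when limma's adjusted p (Benjamini-Hochberg over the 9956 genes tested) was under 0.05 and the change at least 2-fold. Values given with a standard error (SE, from limma) are log2 fold changes. For a group with all 3 arrays under that threshold, the threshold stands in for its level, and the fold is a lower bound. The adjusted p beside a bound is that of the fit to the signals as measured. When low values were raised, that is, every value under the threshold was set to it, 17 of the 171 gene comparisons lost their call, and each loss is given with its gene. Arrays of a group correlated at 0.952 to 0.988. On all 3 P-RPC arrays, 3 of 15 lens markers, 7 of 9 pigment epithelium markers and 6 of 11 microglia and macrophage markers reached the threshold. P-RPC replicate 1 differed from the other P-RPC arrays by its lens genes, with a mean log2 signal of 12.05 over the 15 lens markers, against 5.74 and 6.78 on replicates 2 and 3. Of the matrix genes called versus P-RPC, Col9a1 and Col23a1 had too few arrays left for the test without it, Fbn2 lost its call in rESC-RPC1 and Postn in rESC-RPC2, and all others called in those comparisons kept theirs.

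Relative to P-RPC, most of the matrix genes tested were higher in rESC-RPC1, and fewer were higher in rESC-RPC2. Of the 79 genes, 57 were tested. In rESC-RPC1 versus P-RPC, 43 were called higher and 5 lower, where 12.0% of all genes tested were called higher and 9.56% lower, and the median log2 fold change was 2.11 for the matrix genes against -0.01 for all genes. In rESC-RPC2 versus P-RPC, 24 were called higher and 11 lower (10.7% and 13.0% of all genes), with a median of 0.56 against -0.02. In rESC-RPC2 versus rESC-RPC1, 2 were called higher and 39 lower (5.02% and 9.25% of all genes), with a median of -1.36 against -0.03. The comparisons share arrays, so they are not separate evidence of one another.

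All 3 rESC-RPC1 arrays lay above the 6 others for 35 of the 57 genes (15.5% of all genes tested). All 3 P-RPC arrays were the lowest for 27 (21.9%) and the highest for 6 (25.1%), and all 3 rESC-RPC2 arrays were the lowest for 10 (16.3%) and the highest for 1, Col19a1 (15.2%). Some of this is built in, since a gene can pass the filter through a single group: 4 of the 57 reached the threshold in rESC-RPC1 only, 2 in P-RPC only and 1 in rESC-RPC2 only. In all, 15 of the 57 reached it on no P-RPC array, against 528 of all 9956 genes tested. These passed the filter through rESC-RPC arrays alone. With no filter, all 79 genes gave 45 higher and 8 lower in rESC-RPC1 versus P-RPC (10.5% and 8.3% of all 14217 genes), 27 higher and 15 lower in rESC-RPC2 versus P-RPC (8.90% and 11.35%), and 2 higher and 38 lower in rESC-RPC2 versus rESC-RPC1 (4.09% and 8.15%). In bulk RNA, fewer cells that make a matrix protein and less of its RNA per cell cannot be told apart.

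**Figure D1:**
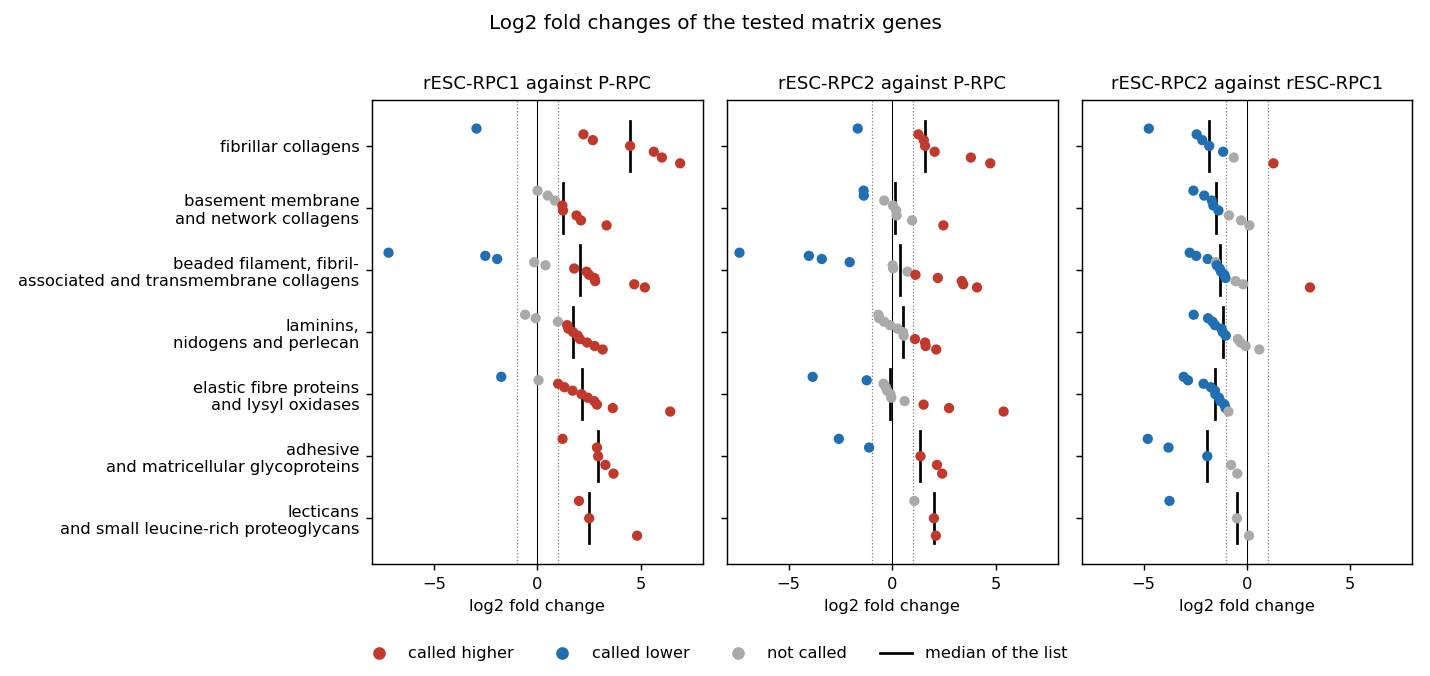
Log2 fold change (x axis) of each of the 57 matrix genes tested, 1 point per gene, by list (rows), in the comparisons named above each panel; dotted lines mark 2-fold, and black bars the median of a list. The medians of fibrillar collagens are 1.59 in rESC-RPC2 and 4.48 in rESC-RPC1 versus P-RPC, and -1.83 in rESC-RPC2 versus rESC-RPC1.

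The 22 genes not tested were Col5a3, Col11a2, Col24a1 and Col27a1 among fibrillar collagens, Col4a4, Col7a1 and Col10a1 among network collagens, Col6a2, Col6a5, Col6a6, Col13a1, Col17a1, Col20a1 and Col26a1 among the other collagens, the laminin chains Lama3 and Lamb3, elastin (Eln), tenascin R (Tnr), and the proteoglycans aggrecan (Acan), neurocan (Ncan), decorin (Dcn) and lumican (Lum). Of these, 20 lay under the threshold on all 9 arrays, and the highest signal among the 22 was 177, for Col5a3 on a rESC-RPC2 array. Elastin and decorin were under the threshold throughout, which does not show that their RNA was absent.

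Fibrillar collagens had the highest median of the lists in rESC-RPC1 versus P-RPC. Of 7 tested, 6 were called higher in both rESC-RPCs than in P-RPC, and Col2a1 was called lower in both. Col1a2, which encodes the alpha-2 chain of type I collagen, had signals of 3739, 2308 and 3342 in rESC-RPC2, 14090.1, 9456 and 19307 in rESC-RPC1 and 104, 132 and 109 in P-RPC. The groups did not overlap, and only 1 of the 3 P-RPC arrays reached the threshold. The log2 fold change of Col1a2 versus P-RPC was 6.90 (SE 0.25, adjusted p = 1.56e-08) in rESC-RPC1 and 4.74 (SE 0.25, adjusted p = 1.58e-07) in rESC-RPC2, and it was -2.16 (SE 0.25, adjusted p = 6.25e-05) in rESC-RPC2 versus rESC-RPC1. Its partner Col1a1, the alpha-1 chain, had signals of 1192, 727 and 993 in rESC-RPC2, 5687, 2326 and 10217 in rESC-RPC1 and 216, 220.4 and 253 in P-RPC, again with no overlap. Against P-RPC it was 4.48 (SE 0.42, adjusted p = 8.24e-06) in rESC-RPC1 and 2.05 (SE 0.42, adjusted p = 0.00150) in rESC-RPC2 on the log2 scale. In both chains rESC-RPC1 replicate 2 was the lowest and replicate 3 the highest of its group.

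The bases before the start of Col1a2 are shown because of the size of its rise, and those of Postn, described further on, because of the distance between the rESC-RPCs. Both are from RefSeq (rat build GRCr8), with a TATA box (TATAAA) and, in Col1a2, a CCAAT box (read as ATTGG on this strand) in capitals. The Col1a2 stretch is chr4:33518327-33518406, plus strand, from 230 to 151 bases before the annotated start, and the Postn stretch is chr2:140677941-140678060, plus strand, the last 120 bases before it. TATAAA lies 170 to 165 bases before the annotated start in Col1a2 and 44 to 39 bases before it in Postn. Whether either acts as a TATA box was not tested.
Col1a2: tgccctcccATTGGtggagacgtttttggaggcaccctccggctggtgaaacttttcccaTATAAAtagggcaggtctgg
Postn: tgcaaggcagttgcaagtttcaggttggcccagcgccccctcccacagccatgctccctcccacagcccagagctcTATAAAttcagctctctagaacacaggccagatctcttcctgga
A promoter window was given for 60 of the 79 genes and for 41 of those tested. In the 250 bases before the start, TATAAA on the strand of the gene was found in 9.76% of the 41, against 8.23% of all 19005 protein-coding promoters. On either strand, CCAAT was in 19.5% against 35.5%, and the GC box GGGCGG, a core of Sp1 sites, in 61.0% against 40.3%. The AP-1 motif TGANTCA (4.88% against 5.82%), the TEAD motif CATTCC (17.1% against 10.8%), the E-box CANNTG (48.8% against 62.8%) and the CArG box of SRF (2.44% against 1.52%) were counted on both strands too. These shares describe letters in a window and were not tested.

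Col5a2, a chain of type V collagen, which starts the assembly of type I fibrils, followed type I with signals of 3537, 2591 and 2928 in rESC-RPC2, 12057, 7911 and 12529.9 in rESC-RPC1 and 217, 208 and 217 in P-RPC. No groups overlapped, and its log2 fold change versus P-RPC was 5.63 (SE 0.17, adjusted p = 6.19e-09) in rESC-RPC1 and 3.80 (SE 0.17, adjusted p = 5.87e-08) in rESC-RPC2. Col5a1, the other main chain, had signals of 536, 431 and 519 in rESC-RPC2, 1287, 539.8 and 1895 in rESC-RPC1 and 144, 169 and 205 in P-RPC. rESC-RPC1 replicate 2 lay just above the highest rESC-RPC2 array, and the call of Col5a1 as lower in rESC-RPC2 relative to rESC-RPC1 (log2 fold change -1.15, SE 0.36, adjusted p = 0.0233) was lost without rESC-RPC1 replicate 1 or 3 or rESC-RPC2 replicate 2 or 3 (adjusted p = 0.0550 to 0.0820). Against P-RPC it was called higher in both, by 2.68 in rESC-RPC1 and 1.53 in rESC-RPC2.

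Col3a1, the single chain of type III collagen of extensible tissues, separated the rESC-RPCs more than any other fibrillar gene. Its signals were 131, 177 and 164 in rESC-RPC2, 5229, 3756 and 3746 in rESC-RPC1 and 65.2, 55.1 and 75 in P-RPC. All P-RPC arrays were under the threshold, so Col3a1 was higher in rESC-RPC2 relative to P-RPC by at least 1.27-fold (adjusted p = 1.41e-04) and higher in rESC-RPC1 by at least 34.2-fold (adjusted p = 6.19e-09). The call in rESC-RPC2 was lost with low values raised (0.35, adjusted p = 0.0834). The log2 fold change in rESC-RPC2 versus rESC-RPC1 was -4.75 (SE 0.18, adjusted p = 1.75e-07). In RefSeq, Col3a1 lies next to Col5a2, with 38189 bases between them, and for Col5a2 that difference was -1.83. Col11a1, a type XI chain that sits inside cartilage and vitreous fibrils, had signals of 1074, 1001 and 862 in rESC-RPC2, 1429, 1094 and 2240.5 in rESC-RPC1 and 335, 292 and 349.7 in P-RPC. It was called higher than in P-RPC in both rESC-RPCs (1.59 in rESC-RPC2 and 2.23 in rESC-RPC1) and not called between them (-0.64, SE 0.22, adjusted p = 0.0323).

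Col2a1, the type II collagen of cartilage and vitreous, ran the other way. It had signals of 440.0, 509.8 and 358 in rESC-RPC2, 205, 124 and 222 in rESC-RPC1 and 1309.5, 1285 and 1527 in P-RPC, with P-RPC highest and rESC-RPC1 lowest and no overlap. Its log2 fold change versus P-RPC was -1.67 (SE 0.21, adjusted p = 6.93e-05) in rESC-RPC2 and -2.94 (SE 0.21, adjusted p = 1.44e-06) in rESC-RPC1, and it was 1 of the 2 matrix genes called higher in rESC-RPC2 relative to rESC-RPC1 (1.28, SE 0.21, adjusted p = 7.18e-04). With the mean of its probe sets this last difference was 0.98 and under 2-fold.

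Lox, lysyl oxidase, which cross-links collagen and elastin, matched the fibrillar pattern. It had signals of 4665, 3199 and 3983 in rESC-RPC2, 7352, 5259.6 and 13263 in rESC-RPC1 and 75.2, 96.9 and 111 in P-RPC, all P-RPC arrays under the threshold and every rESC-RPC array far above it. Lox was higher in rESC-RPC2 relative to P-RPC by at least 31.8-fold (adjusted p = 1.94e-07) and higher in rESC-RPC1 by at least 65.3-fold (adjusted p = 6.71e-08). The difference between the rESC-RPCs, -1.04 (SE 0.29, adjusted p = 0.0134), fell under 2-fold without rESC-RPC1 replicate 3 (-0.67) and without rESC-RPC2 replicate 2 (-0.89, adjusted p = 0.0535), and was -0.98 with arrays centered on their median.

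**Figure D2:**
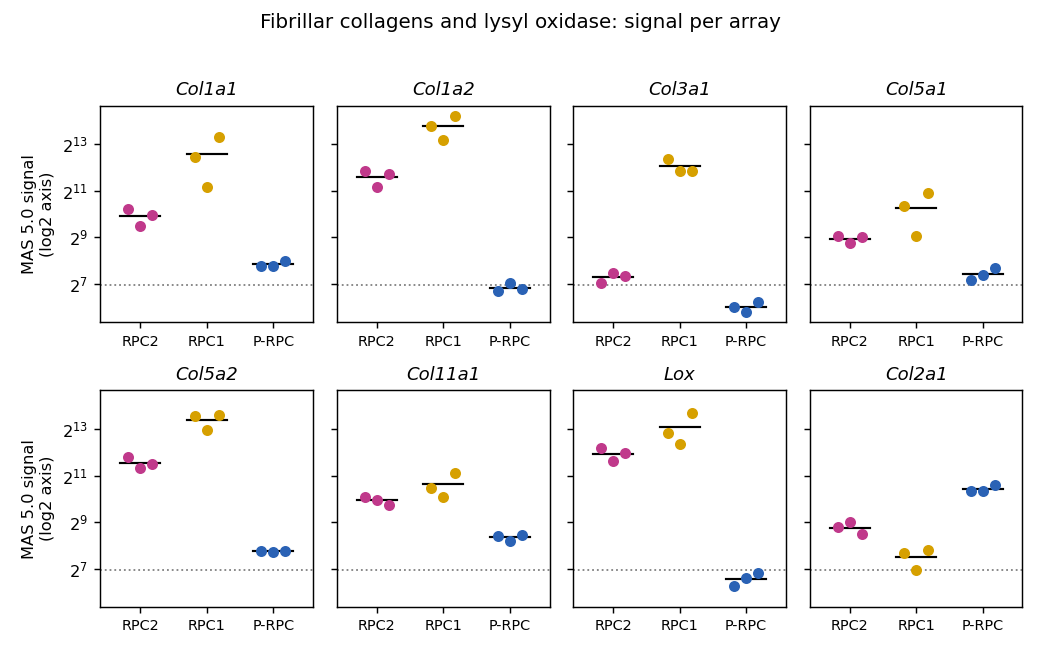
Signal (log2 axis) of fibrillar collagens and Lox on each array, points for replicates 1 to 3 from left to right, black lines for group means, the dotted line for the detection threshold; RPC2 and RPC1 stand for rESC-RPC2 and rESC-RPC1. In 7 of the 8 panels P-RPC is the lowest group with no overlap, and in the panel of Col2a1 it is the highest.

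The type IV collagens of basement membranes were called higher in rESC-RPC1 relative to P-RPC and not in rESC-RPC2, and lower in rESC-RPC2 relative to rESC-RPC1. Of 8 network collagens tested, 5 were called higher and 0 lower in rESC-RPC1 versus P-RPC, 1 higher (Col8a1) and 2 lower in rESC-RPC2 versus P-RPC, and 0 higher and 5 lower in rESC-RPC2 versus rESC-RPC1. Col4a1, which with Col4a2 forms the type IV collagen of nearly all basement membranes, had signals of 541, 394 and 472 in rESC-RPC2, 1988, 1335 and 2794 in rESC-RPC1 and 539, 403 and 427 in P-RPC. rESC-RPC1 was above both other groups, which overlapped. Its log2 fold change was 2.11 (SE 0.24, adjusted p = 3.08e-05) in rESC-RPC1 versus P-RPC, 0.04 (SE 0.24, adjusted p = 0.897) in rESC-RPC2 versus P-RPC, and -2.07 (SE 0.24, adjusted p = 6.53e-05) in rESC-RPC2 versus rESC-RPC1. Col4a2 had signals of 161, 129 and 295 in rESC-RPC2, 643, 369.6 and 762 in rESC-RPC1 and 243, 291 and 195 in P-RPC, the same order with more spread in rESC-RPC2 (1.24, SE 0.33, adjusted p = 0.00813, in rESC-RPC1 versus P-RPC, and -1.63, SE 0.33, adjusted p = 0.00237, in rESC-RPC2 versus rESC-RPC1).

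The pair is encoded head to head, and the bases between their annotated starts are shown as the shared upstream region of chains that moved together. They span 76 bases at chr16:84885521-84885596 (GRCr8, RefSeq), printed on the plus strand, on which Col4a1 is read, while Col4a2 is read from the minus strand. Capitals mark a GC box (CCGCCC on this strand).
Col4a1 and Col4a2: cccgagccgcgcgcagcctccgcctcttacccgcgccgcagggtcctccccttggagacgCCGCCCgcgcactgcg
Col4a5 and Col4a6 are another head-to-head type IV pair in mammals, and they did not stay together in rESC-RPC2 versus P-RPC. In rESC-RPC2 versus rESC-RPC1 both were called lower, Col4a5 by -1.70 (adjusted p = 3.21e-05) and Col4a6 by -2.59 (adjusted p = 3.29e-05). Col4a5 had signals of 1969.7, 1557 and 1636 in rESC-RPC2, 5408, 7404 and 4283 in rESC-RPC1 and 1628, 1396 and 1486 in P-RPC, with rESC-RPC1 highest and a log2 fold change of 1.89 (SE 0.17, adjusted p = 7.32e-06) versus P-RPC, while in rESC-RPC2 it was 0.19 (SE 0.17, adjusted p = 0.354). Col4a6 had signals of 113, 105 and 76 in rESC-RPC2, 599, 829 and 396 in rESC-RPC1 and 307, 229 and 227 in P-RPC, with all rESC-RPC2 arrays under the threshold and no overlap of groups. It was called higher in rESC-RPC1 relative to P-RPC (1.21, SE 0.26, adjusted p = 0.00258) and lower in rESC-RPC2 relative to P-RPC by at least 2.05-fold (adjusted p = 0.00104). The call in rESC-RPC1 was lost without its replicate 2 (0.95, under 2-fold), and a further probe set gave -0.87 with no call for rESC-RPC2 versus P-RPC.

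Col8a1, a short-chain network collagen of vessels and of the corneal endothelial membrane, had signals of 1218, 644 and 765 in rESC-RPC2, 1478, 749 and 3307 in rESC-RPC1 and 161, 153 and 142 in P-RPC, higher than P-RPC in both rESC-RPCs (2.47, SE 0.43, adjusted p = 5.66e-04, in rESC-RPC2 and 3.34, SE 0.43, adjusted p = 8.14e-05, in rESC-RPC1). The rESC-RPCs overlapped. Without rESC-RPC1 replicate 2, its log2 fold change in rESC-RPC2 versus rESC-RPC1 was -1.39 (adjusted p = 0.00447), against -0.87 (not called) with all arrays. Col18a1, the source of endostatin, had signals of 268, 258 and 196 in rESC-RPC2, 692, 382 and 907 in rESC-RPC1 and 638, 585 and 634 in P-RPC, lowest in rESC-RPC2 and overlapping between rESC-RPC1 and P-RPC. Its log2 fold change was -1.37 (SE 0.26, adjusted p = 0.00105) in rESC-RPC2 and 0.01 (SE 0.26, adjusted p = 0.985) in rESC-RPC1 versus P-RPC. A further probe set of Col18a1 gave -0.92 in rESC-RPC2, under 2-fold. Col8a2 and Col15a1 were called in no comparison, though Col15a1 reached 1.28 (adjusted p = 0.00551) in rESC-RPC1 versus P-RPC without rESC-RPC1 replicate 2. In rESC-RPC2 versus P-RPC Col15a1 reached 1.04 (adjusted p = 0.0445) with quantile normalization and 1.05 (adjusted p = 0.0429) with median centering.

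Among laminins, nidogens and perlecan, 11 were tested, of which 8 were called higher in rESC-RPC1 and 4 in rESC-RPC2 versus P-RPC, with 0 lower in either, and 7 were called lower in rESC-RPC2 relative to rESC-RPC1. Lamc1, the gamma-1 chain shared by most laminins, had signals of 4836, 3394 and 4329.7 in rESC-RPC2, 8795, 6192 and 11062 in rESC-RPC1 and 958, 896 and 989 in P-RPC, with no overlap. Its log2 fold change versus P-RPC was 2.13 (SE 0.19, adjusted p = 5.38e-06) in rESC-RPC2 and 3.16 (SE 0.19, adjusted p = 4.12e-07) in rESC-RPC1. Between the rESC-RPCs it was -1.03 (SE 0.19, adjusted p = 0.00131), close to the 2-fold limit, and it fell just under that limit without rESC-RPC1 replicate 1 (adjusted p = 0.00753), and further without rESC-RPC1 replicate 3 (-0.83), without rESC-RPC2 replicate 2 (-0.88), and with median centering (-0.97). Lama5, the alpha chain of laminins found in most mature basement membranes, had signals of 321, 310.3 and 365 in rESC-RPC2, 1390.4, 947 and 1386 in rESC-RPC1 and 237, 209 and 249 in P-RPC. rESC-RPC1 stood well above both other groups, at 2.40 (SE 0.16, adjusted p = 7.57e-07) versus P-RPC, while rESC-RPC2 was at 0.52 (SE 0.16, adjusted p = 0.0153) and not called.

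Lama2, the alpha chain of laminin in muscle and at glial end feet, was over the threshold in rESC-RPC1 alone, with signals of 44.8, 39.8 and 53.6 in rESC-RPC2, 316, 259.6 and 247 in rESC-RPC1 and 66.1, 58.9 and 91.2 in P-RPC. It was higher in rESC-RPC1 relative to P-RPC by at least 2.23-fold (adjusted p = 7.44e-05), and rESC-RPC2 was at least 2.23-fold lower than rESC-RPC1 (adjusted p = 2.28e-05). Without any 1 rESC-RPC1 array the filter dropped Lama2, whose mean log2 difference from P-RPC then lay between 1.84 and 2.02. Lama4, an alpha chain of vessel laminins, had signals of 376, 253 and 292 in rESC-RPC2, 716, 424 and 1043 in rESC-RPC1 and 204, 175 and 244 in P-RPC (1.73, SE 0.29, adjusted p = 4.62e-04, in rESC-RPC1 versus P-RPC). Its difference between the rESC-RPCs, -1.17, was -0.87 without rESC-RPC1 replicate 3. Lamb1, the common beta chain, had signals of 643, 355 and 319.9 in rESC-RPC2, 1616, 658 and 1713 in rESC-RPC1 and 506, 331 and 542 in P-RPC, with rESC-RPC2 and P-RPC overlapping and rESC-RPC1 above both (1.44, SE 0.38, adjusted p = 0.00717, versus P-RPC). Lamb2, the beta chain of synaptic and retinal laminins, was called higher in rESC-RPC1 (1.49, SE 0.10, adjusted p = 8.50e-07) and not in rESC-RPC2 (0.26, SE 0.10, adjusted p = 0.0443). Lama1 and Lamc3 were called in no comparison, and Lama1 had its 3 highest arrays in P-RPC (-0.66, SE 0.18, adjusted p = 0.00870, in rESC-RPC2 and -0.59, SE 0.18, adjusted p = 0.0162, in rESC-RPC1).

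The linkers and perlecan split. Nid2, nidogen-2, which ties laminin to type IV collagen, had signals of 528, 492 and 478 in rESC-RPC2, 1328, 1379 and 2165 in rESC-RPC1 and 211, 231 and 257 in P-RPC, with no overlap (1.10, SE 0.17, adjusted p = 2.91e-04, in rESC-RPC2 and 2.77, SE 0.17, adjusted p = 5.48e-07, in rESC-RPC1 versus P-RPC). Nid1, its paralog, had signals of 1962, 1379 and 1497 in rESC-RPC2, 990.0, 742 and 1588 in rESC-RPC1 and 825, 387 and 462 in P-RPC and was called higher than P-RPC in rESC-RPC2 (1.59, SE 0.31, adjusted p = 0.00118) and not in rESC-RPC1 (0.99, SE 0.31, adjusted p = 0.0179). A further probe set of Nid1 gave -0.03 for rESC-RPC2 versus P-RPC, so its level there depends on the probe set. Without P-RPC replicate 1, the highest P-RPC array for Nid1, rESC-RPC1 was also called higher (1.32, adjusted p = 0.00387). The same held without rESC-RPC1 replicate 1 (1.04) or replicate 2 (1.25). Hspg2, perlecan, the heparan sulfate proteoglycan of basement membranes, had signals of 411, 357 and 490.0 in rESC-RPC2, 624, 386 and 743 in rESC-RPC1 and 162, 133 and 116 in P-RPC, called higher in both rESC-RPCs (1.62, SE 0.24, adjusted p = 1.72e-04, in rESC-RPC2 and 2.06, SE 0.24, adjusted p = 3.58e-05, in rESC-RPC1), which overlapped.

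**Figure D3:**
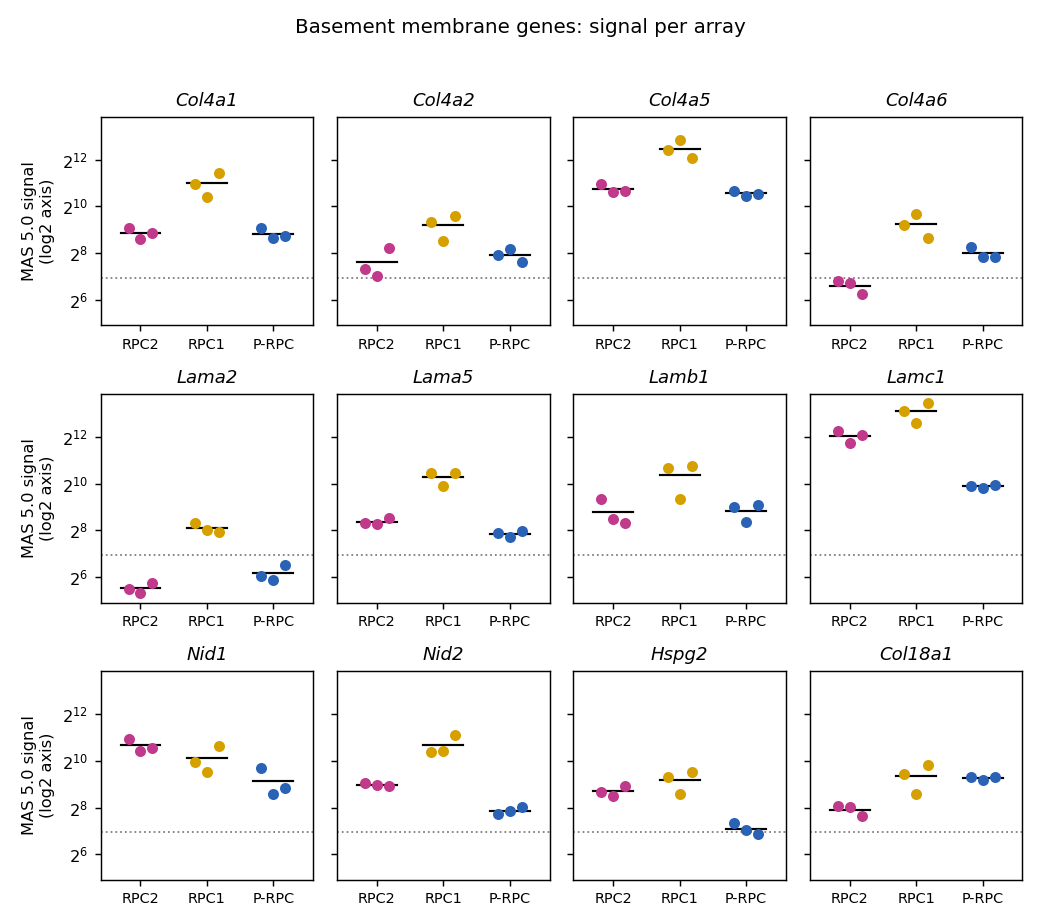
Signal (log2 axis) of 12 basement membrane genes on each array, drawn as for the fibrillar collagens (points for replicates 1 to 3, black lines for group means, dotted line for the detection threshold; RPC2 and RPC1 are rESC-RPC2 and rESC-RPC1). rESC-RPC1 is the highest group in 11 panels by its mean, the exception being Nid1, and rESC-RPC2 is under the threshold on all arrays for Col4a6 and Lama2.

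The remaining collagens coat fibrils, form beaded filaments or span the cell membrane. Of 12 tested, 7 were called higher and 3 lower in rESC-RPC1 and 5 higher and 4 lower in rESC-RPC2 versus P-RPC, and 1 higher and 8 lower in rESC-RPC2 versus rESC-RPC1. Col12a1 and Col14a1, which coat type I fibrils, rose with them. Col12a1 had signals of 588, 359.7 and 542 in rESC-RPC2, 1220.0, 558 and 1637 in rESC-RPC1 and 44.8, 25.7 and 19.7 in P-RPC, higher in rESC-RPC2 relative to P-RPC by at least 3.96-fold (adjusted p = 1.05e-05) and higher in rESC-RPC1 by at least 8.46-fold (adjusted p = 2.34e-06). Col14a1 had signals of 581, 704 and 443 in rESC-RPC2, 1704, 725 and 2284 in rESC-RPC1 and 48, 57.7 and 60.1 in P-RPC, higher in rESC-RPC2 relative to P-RPC by at least 4.62-fold and higher in rESC-RPC1 by at least 11.5-fold (adjusted p = 1.65e-05 in rESC-RPC2 and 1.89e-06 in rESC-RPC1). All P-RPC arrays were under the threshold for both. Between the rESC-RPCs, the call of Col12a1 (-1.09, SE 0.40, adjusted p = 0.0448) was lost when any of 6 arrays was left out (P-RPC replicate 2, rESC-RPC1 replicate 1 or 3, or any rESC-RPC2 array, with adjusted p up to 0.148), and that of Col14a1 (-1.32) was lost without rESC-RPC1 replicate 3 (-0.97).

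Col16a1 and Col22a1, 2 further fibril-associated collagens, were called higher in rESC-RPC1 relative to P-RPC (2.50, SE 0.18, adjusted p = 1.58e-06, and at least 2.77-fold). Col16a1 was at 0.04 (SE 0.18, adjusted p = 0.850) in rESC-RPC2. Col22a1, under the threshold on all P-RPC arrays, was higher in rESC-RPC2 by at least 1.16-fold (adjusted p = 0.00374), a call lost without P-RPC replicate 3 and with low values raised (0.22, adjusted p = 0.0993). Col6a1 and Col6a3, chains of the beaded filaments of type VI, were over the threshold in rESC-RPC1 alone. Col6a1 had signals of 6.74, 46.6 and 45.9 in rESC-RPC2, 161, 205 and 138 in rESC-RPC1 and 39.7, 30.3 and 11.5 in P-RPC and was higher in rESC-RPC1 relative to P-RPC by at least 1.35-fold (adjusted p = 0.00846). For Col6a3 the bound was 1.33-fold (adjusted p = 7.14e-04). Both were no longer tested without any 1 rESC-RPC1 array. With low values raised, both were under 2-fold in rESC-RPC1 versus P-RPC (0.44 for Col6a1 and 0.41 for Col6a3) and in rESC-RPC2 versus rESC-RPC1 (-0.44 and -0.41). The third chain of the trimer, Col6a2, was not tested. Col25a1, a transmembrane collagen of neurons, had signals of 298, 484 and 364 in rESC-RPC2, 605, 624 and 438 in rESC-RPC1 and 101, 87.3 and 60.7 in P-RPC, higher in rESC-RPC2 relative to P-RPC by at least 3.06-fold and higher in rESC-RPC1 by at least 4.48-fold (adjusted p = 2.09e-05 in rESC-RPC2 and 4.97e-06 in rESC-RPC1), with the rESC-RPCs overlapping.

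Type IX collagen, whose trimer of Col9a1, Col9a2 and Col9a3 decorates type II fibrils in cartilage and vitreous, was lower in the rESC-RPCs, and its chains differed. Col9a1 had signals of 29.3, 43.2 and 41.5 in rESC-RPC2, 41.3, 38.6 and 48.5 in rESC-RPC1 and 6583, 5648 and 6574 in P-RPC, and every rESC-RPC array was under the threshold. It was lower in both rESC-RPC2 and rESC-RPC1 relative to P-RPC by at least 51-fold (adjusted p = 1.89e-09 in rESC-RPC2 and 3.01e-09 in rESC-RPC1). The P-RPC arrays lay close together, the one with high lens genes included. Without any 1 of them the filter dropped the gene, and the mean log2 difference stayed between -7.46 and -7.16. Col9a3 had signals of 131, 271 and 226 in rESC-RPC2, 701, 569 and 414 in rESC-RPC1 and 1953, 1992 and 2425 in P-RPC, with no overlap (-3.40, SE 0.26, adjusted p = 1.92e-06, in rESC-RPC2 and -1.95, SE 0.26, adjusted p = 1.08e-04, in rESC-RPC1 versus P-RPC). Col9a2 had signals of 128, 106 and 154 in rESC-RPC2, 632, 423 and 405 in rESC-RPC1 and 565, 499 and 530.0 in P-RPC, called lower in rESC-RPC2 (-2.05, SE 0.19, adjusted p = 7.67e-06) but not in rESC-RPC1 (-0.15, SE 0.19, adjusted p = 0.510), which overlapped P-RPC. In rESC-RPC1 2 chains of the trimer were thus over the threshold on every array and Col9a1 on none.

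Col19a1, a fibril-associated collagen made by interneurons in mouse brain, was the single matrix gene with its 3 highest arrays in rESC-RPC2. It had signals of 404, 660.3 and 565 in rESC-RPC2, 63.2, 113 and 37.7 in rESC-RPC1 and 50.3, 57.9 and 40.8 in P-RPC, higher in rESC-RPC2 relative to either other group by at least 4.34-fold (adjusted p = 1.88e-05 versus P-RPC and 8.90e-05 versus rESC-RPC1). Without any 1 rESC-RPC2 array it was no longer tested, and its mean log2 difference then lay between 2.89 and 3.63. Col19a1 and Col9a1 are neighbors on chromosome 9, on opposite strands with 5695 bases between their ends, and the last 120 bases before each start are shown because these neighbors changed in opposite directions in rESC-RPC2 (RefSeq, GRCr8). Col9a1 is at chr9:34081244-34081363 on the plus strand and Col19a1 at chr9:34518258-34518377, given on its own, minus strand. Neither holds a TATA box, a GC box or the CCAAT motif on either strand, so no letters are in capitals.
Col9a1: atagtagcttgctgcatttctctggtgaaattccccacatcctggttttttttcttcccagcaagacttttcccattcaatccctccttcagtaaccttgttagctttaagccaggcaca
Col19a1: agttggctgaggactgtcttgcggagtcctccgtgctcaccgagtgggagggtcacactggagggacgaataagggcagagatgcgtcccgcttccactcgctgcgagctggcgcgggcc
Col23a1, a transmembrane collagen, was detected in P-RPC only, with signals of 10.1, 30.9 and 5.08 in rESC-RPC2, 30.8, 57.1 and 20.9 in rESC-RPC1 and 170.2, 177 and 229 in P-RPC. It was lower in both rESC-RPCs relative to P-RPC by at least 1.55-fold (adjusted p = 3.37e-04 in rESC-RPC2 and 0.00670 in rESC-RPC1). With low values raised, its difference was under 2-fold in both (-0.64).

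Elastic fiber genes and the other lysyl oxidases followed rESC-RPC1. Of 11 tested, Lox included, 9 were called higher and 1 lower in rESC-RPC1, and 3 higher and 2 lower in rESC-RPC2, versus P-RPC, and 10 were called lower in rESC-RPC2 relative to rESC-RPC1. Fbln2, fibulin-2, which bridges elastic fibers and basement membranes, had signals of 432, 485 and 406 in rESC-RPC2, 4363, 2216 and 5092 in rESC-RPC1 and 545, 515 and 578 in P-RPC. rESC-RPC1 was far above both other groups, and rESC-RPC2 lay just under P-RPC. Its log2 fold change was 2.75 (SE 0.25, adjusted p = 6.62e-06) in rESC-RPC1 and -0.31 (SE 0.25, adjusted p = 0.295) in rESC-RPC2 versus P-RPC. Fbln5, needed to organize elastin on microfibrils, had signals of 188, 163 and 181 in rESC-RPC2, 278, 240.3 and 539.6 in rESC-RPC1 and 41, 37.2 and 12.1 in P-RPC and was higher in rESC-RPC2 relative to P-RPC by at least 1.45-fold and higher in rESC-RPC1 by at least 2.69-fold (adjusted p = 3.92e-04 in rESC-RPC2 and 6.22e-05 in rESC-RPC1). With low values raised, Fbln5 was at 0.53 (adjusted p = 0.0877) in rESC-RPC2 and not called. Efemp2, fibulin-4, which brings lysyl oxidase to elastin, had signals of 970.4, 734 and 829.8 in rESC-RPC2, 2645, 1788 and 3030.1 in rESC-RPC1 and 519.5, 535 and 608 in P-RPC, with a call in rESC-RPC1 (2.14, SE 0.18, adjusted p = 4.27e-06) and none in rESC-RPC2 (0.60, SE 0.18, adjusted p = 0.0137).

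Versus P-RPC, the lysyl oxidase relatives had smaller fitted log2 fold changes than Lox, while in rESC-RPC2 versus rESC-RPC1 theirs were the larger ones, at -2.85 for Loxl1, -1.74 for Loxl2 and -1.36 for Loxl3. Loxl1, which acts on elastin, had signals of 376, 123 and 261 in rESC-RPC2, 1849, 907 and 2719 in rESC-RPC1 and 379, 213 and 358 in P-RPC (2.43, SE 0.45, adjusted p = 9.50e-04, in rESC-RPC1 and -0.42, SE 0.45, adjusted p = 0.438, in rESC-RPC2). Loxl2, which also cross-links type IV collagen, had signals of 198, 101 and 119 in rESC-RPC2, 401, 235 and 949.5 in rESC-RPC1 and 151, 139 and 125 in P-RPC (1.70, SE 0.43, adjusted p = 0.00598, in rESC-RPC1), and rESC-RPC2 overlapped P-RPC. Loxl3 had signals of 182, 226 and 185 in rESC-RPC2, 526, 469.6 and 517 in rESC-RPC1 and 47, 83 and 82.6 in P-RPC, with no overlap, and was higher in rESC-RPC2 relative to P-RPC by at least 1.6-fold and higher in rESC-RPC1 by at least 4.11-fold. Loxl3 was under 2-fold in rESC-RPC2 with low values raised (0.68). Fibrillin-1 (Fbn1, 1.31, SE 0.32, adjusted p = 0.00484, in rESC-RPC1 versus P-RPC) and fibrillin-2 (Fbn2, 1.00, SE 0.39, adjusted p = 0.0470), the microfibril proteins, were called by narrow margins. Fbn1 was at 0.94 without rESC-RPC1 replicate 3, and a further probe set gave no call in rESC-RPC1 versus P-RPC (0.77, adjusted p = 0.0515) or in rESC-RPC2 versus rESC-RPC1 (-0.98). Fbn2 lost its call when any of 7 of the 9 arrays was left out (adjusted p = 0.0536 to 0.155), P-RPC replicate 1 among them (0.98, adjusted p = 0.105). Its call as lower in rESC-RPC2 relative to rESC-RPC1 (-1.09, SE 0.39, adjusted p = 0.0414) was also lost for 7 (adjusted p = 0.0550 to 0.133). Both calls of Fbn2 were lost with low values raised (adjusted p = 0.0556 in rESC-RPC1 versus P-RPC and 0.0503 in rESC-RPC2 versus rESC-RPC1). Fbln1 was called lower in rESC-RPC2 relative to P-RPC (-1.23, SE 0.18, adjusted p = 1.72e-04) and not called in rESC-RPC1 (0.06).

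Efemp1, fibulin-3, a matrix protein of the retina and its pigment epithelium, was the elastic fiber relative that went down in both. It had signals of 41.8, 53.1 and 64.3 in rESC-RPC2, 253, 323 and 137 in rESC-RPC1 and 783, 720.5 and 750.3 in P-RPC, every group apart and all rESC-RPC2 arrays under the threshold. Efemp1 was lower in rESC-RPC2 relative to P-RPC by at least 6.13-fold (adjusted p = 1.46e-06), and in rESC-RPC1 the log2 fold change was -1.75 (SE 0.28, adjusted p = 3.96e-04). With low values raised, rESC-RPC2 was less than 2-fold under rESC-RPC1 (-0.87). Markers of retinal pigment epithelium moved in the same direction: of 7 tested, 6 were called lower and 0 higher in rESC-RPC2, and 5 lower and 2 higher in rESC-RPC1, versus P-RPC. Rlbp1, which Müller glia of the retina also express, had signals of 2.25, 5.33 and 1.77 in rESC-RPC2, 45.5, 218 and 9.73 in rESC-RPC1 and 3366, 3513 and 3499 in P-RPC and Rpe65, the defining visual cycle enzyme, stayed under the threshold on all 9 arrays. The part of pigment epithelium cells in the level of Efemp1 was not tested.

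Adhesive glycoproteins were all called higher in rESC-RPC1 relative to P-RPC (5 of 5 tested), and in rESC-RPC2 3 were higher and 2 lower. Fn1, fibronectin, on which collagen fibrils assemble, had signals of 8739.7, 4812 and 7113 in rESC-RPC2, 8694, 7262 and 12520.2 in rESC-RPC1 and 1143, 1279 and 1349.7 in P-RPC. Both rESC-RPCs were above P-RPC and overlapped each other (2.41, SE 0.22, adjusted p = 7.35e-06, in rESC-RPC2 and 2.88, SE 0.22, adjusted p = 2.42e-06, in rESC-RPC1). Sparc, a collagen-binding protein of remodeling tissue, had signals of 8787, 6177 and 6959 in rESC-RPC2, 12471, 10895 and 13754 in rESC-RPC1 and 1657, 1354 and 1856 in P-RPC, the groups apart (2.17, SE 0.15, adjusted p = 8.37e-07, in rESC-RPC2 and 2.94, SE 0.15, adjusted p = 1.34e-07, in rESC-RPC1). Between the rESC-RPCs it was not called (-0.77), while a further probe set gave -1.27 and a call. Tnc, tenascin C, made by radial glia and other progenitors, had signals of 842, 1900.0 and 1009 in rESC-RPC2, 3693, 5444 and 4338 in rESC-RPC1 and 404, 459 and 505 in P-RPC, with no overlap (1.37, SE 0.26, adjusted p = 9.93e-04, in rESC-RPC2 and 3.29, SE 0.26, adjusted p = 2.67e-06, in rESC-RPC1). Its rESC-RPC arrays ran highest in replicate 2 of each kind, unlike type I collagen.

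Postn, periostin, which helps collagen cross-linking in connective tissue, and Mgp, matrix Gla protein, an inhibitor of calcification, were higher in rESC-RPC1 and under the threshold in rESC-RPC2. Postn had signals of 47.1, 69 and 52.4 in rESC-RPC2, 1790.3, 737 and 2762 in rESC-RPC1 and 109, 107 and 149 in P-RPC, with no overlap and with all rESC-RPC2 arrays and 2 P-RPC arrays under the threshold. In rESC-RPC1 its log2 fold change versus P-RPC was 3.68 (SE 0.40, adjusted p = 2.22e-05), and rESC-RPC2 was at least 12.6-fold lower than rESC-RPC1 (adjusted p = 9.25e-06). The lower call in rESC-RPC2 versus P-RPC (adjusted p = 0.0297) compares signals that mostly lay under the threshold. It was lost without any 1 of the P-RPC arrays and without rESC-RPC2 replicate 1 or 3 (adjusted p = 0.0512 to 0.0990; without P-RPC replicate 1 it was 0.0540), and with low values raised (-0.09, adjusted p = 0.855). Mgp had signals of 29.3, 33.2 and 19.4 in rESC-RPC2, 477, 228 and 466 in rESC-RPC1 and 161, 133 and 188 in P-RPC, also with no overlap. It was called higher in rESC-RPC1 relative to P-RPC (1.22, SE 0.32, adjusted p = 0.00814) and was lower in rESC-RPC2 relative to P-RPC by at least 1.3-fold (adjusted p = 6.19e-05) and at least 3.02-fold lower than in rESC-RPC1 (adjusted p = 1.14e-05). With low values raised, the call of Mgp in rESC-RPC2 versus P-RPC was lost (-0.38, adjusted p = 0.228).

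Of the proteoglycans 3 were tested. Vcan, versican, a hyaluronan-binding proteoglycan of developing tissue, had signals of 1848, 2200.1 and 2165 in rESC-RPC2, 3084, 3896 and 2016 in rESC-RPC1 and 495, 496 and 540.0 in P-RPC (2.02, SE 0.19, adjusted p = 9.38e-06, in rESC-RPC2 and 2.50, SE 0.19, adjusted p = 2.39e-06, in rESC-RPC1 versus P-RPC), and the rESC-RPCs overlapped. Bcan, brevican, a brain lectican of glia and perineuronal nets, had signals of 142, 308 and 227 in rESC-RPC2, 272, 440.3 and 67.6 in rESC-RPC1 and 49.3, 51 and 49 in P-RPC. rESC-RPC1 replicate 3 was under the threshold, as were all P-RPC arrays, and the bounds were 1.75-fold in rESC-RPC2 and 1.64-fold in rESC-RPC1 (adjusted p = 0.00780 in rESC-RPC2 and 0.0107 in rESC-RPC1). Both calls of Bcan were lost with low values raised (adjusted p = 0.114 in rESC-RPC2 and 0.0603 in rESC-RPC1). Bgn, biglycan, a small proteoglycan of fibrous tissue, was detected in rESC-RPC1 only, with signals of 36.2, 54 and 56.9 in rESC-RPC2, 659.7, 484 and 846 in rESC-RPC1 and 31.8, 43.5 and 8.64 in P-RPC. It was at least 5.27-fold higher there than in P-RPC (adjusted p = 2.47e-05), and rESC-RPC2 was at least 5.27-fold lower than rESC-RPC1 (adjusted p = 2.41e-04). Without any 1 rESC-RPC1 array Bgn was no longer tested, and its mean log2 difference from P-RPC then lay between 4.63 and 5.03. Its relatives decorin and lumican were not tested.

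**Figure D4:**
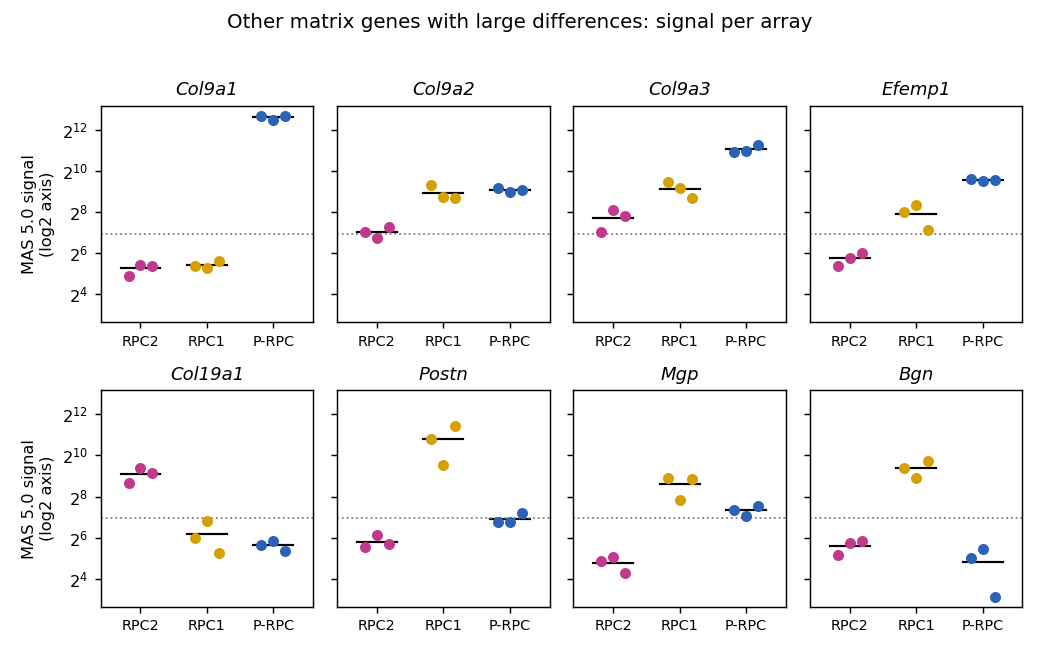
Signal (log2 axis) of 8 further matrix genes on each array, drawn as for the fibrillar collagens (points for replicates 1 to 3, black lines for group means, dotted line for the detection threshold; RPC2 and RPC1 are rESC-RPC2 and rESC-RPC1). Col9a1 and Efemp1 are highest in P-RPC, Col19a1 in rESC-RPC2, and Postn, Mgp and Bgn in rESC-RPC1.

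The order of the rESC-RPC1 cultures was shared by many of these genes. Of the 43 called higher in rESC-RPC1 versus P-RPC, replicate 2 was the lowest array of its group in 32 (74.4%, against 39.0% of all genes tested) and replicate 3 the highest in 27 (62.8%, against 37.8%). In rESC-RPC2, replicate 2 was also the lowest for 26 of the 43 (60.5%, against 34.6%), while replicate 1 was the highest for 26 (60.5%, against 41.7%). A run shared by same-numbered rESC-RPC cultures was not tested. The matrix genes of a culture thus moved together and are not independent of each other, and for Col1a1 the rESC-RPC1 signals spread over 2326 to 10217. Of 17 genes with further probe sets (19 in all), the further probe set gave the same call for 16 of 19 in rESC-RPC2 and 18 of 19 in rESC-RPC1 versus P-RPC and 15 of 19 between the rESC-RPCs, and 0 had opposite calls.

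Enzymes that fold and modify collagen followed the collagens in rESC-RPC1. Of 18 tested, 13 were called higher and 0 lower in rESC-RPC1, and 3 higher and 2 lower in rESC-RPC2, versus P-RPC, and 11 were called lower in rESC-RPC2 relative to rESC-RPC1. Over all genes tested, 12.0% were called higher and 9.56% lower in rESC-RPC1 versus P-RPC, and 10.7% and 13.0% in rESC-RPC2. Between the rESC-RPCs the shares were 5.02% and 9.25%. These shares apply to each list below and to the pigment epithelium markers. P4ha3, a prolyl 4-hydroxylase subunit, was higher in rESC-RPC2 relative to P-RPC by at least 11.9-fold and higher in rESC-RPC1 by at least 18.9-fold (adjusted p = 9.63e-07 in rESC-RPC2 and 4.69e-07 in rESC-RPC1). Serpinh1, the collagen chaperone HSP47, had signals of 4758, 3737 and 3718 in rESC-RPC2, 8600.1, 6039 and 10332 in rESC-RPC1 and 859, 799.9 and 916 in P-RPC, with no overlap (2.24, SE 0.17, adjusted p = 2.03e-06, in rESC-RPC2 and 3.25, SE 0.17, adjusted p = 1.79e-07, in rESC-RPC1). Plod1, a lysyl hydroxylase, was called in rESC-RPC1 (2.12, SE 0.18, adjusted p = 4.35e-06) and not in rESC-RPC2 (-0.52, SE 0.18, adjusted p = 0.0278). P4ha1 and P4ha2, the common catalytic subunits of prolyl 4-hydroxylase, were called lower in rESC-RPC2 relative to rESC-RPC1 (-2.01 and -1.63).

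Among matrix receptors 16 were tested, of which 0 were called higher and 5 lower in rESC-RPC2 relative to rESC-RPC1. Versus P-RPC, 11 were called higher in rESC-RPC1 and 7 in rESC-RPC2, and 0 lower. Itga6, the alpha-6 integrin that binds laminin, was at 1.92 (SE 0.21, adjusted p = 2.29e-05) in rESC-RPC2 and 2.70 (SE 0.21, adjusted p = 2.47e-06) in rESC-RPC1. Ddr2, a receptor kinase for fibrillar collagen, was higher in rESC-RPC2 relative to P-RPC by at least 4.33-fold and higher in rESC-RPC1 by at least 4.75-fold. Of 17 matrix proteases and their inhibitors, 1 was called higher and 7 lower in rESC-RPC2 relative to rESC-RPC1. Versus P-RPC, 10 were called higher and 0 lower in rESC-RPC1, and 6 higher and 3 lower in rESC-RPC2. Mmp2, a gelatinase, had signals of 192, 155 and 173 in rESC-RPC2, 1274, 646 and 2111 in rESC-RPC1 and 189, 207 and 252 in P-RPC, highest in rESC-RPC1 (2.49, SE 0.34, adjusted p = 1.14e-04, versus P-RPC), where Timp1 and Timp3, tissue inhibitors of such enzymes, were also higher (3.46 and 3.43). Unlike Mmp2, both inhibitors were called in rESC-RPC2 (2.88 and 2.81). The largest change of the list was in another protease, Adamts9. Versus P-RPC it was at 4.82 (SE 0.31, adjusted p = 5.17e-07) in rESC-RPC2 and 3.92 (SE 0.31, adjusted p = 2.47e-06) in rESC-RPC1. Its mean signal was larger in rESC-RPC2 (2726 against 1517 in rESC-RPC1), with no call between them (0.91). Has2, a hyaluronan synthase, was higher in rESC-RPC1 relative to P-RPC by at least 3.94-fold (adjusted p = 1.93e-04).

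Markers of cell types that make much matrix did not all move with it. Of 16 mesenchymal and smooth muscle markers, 8 lay under the threshold on all 9 arrays, and 5 reached it on all arrays of rESC-RPC2, 6 of rESC-RPC1 and 4 of P-RPC. The mean log2 signal of the list ranged over 5.78 to 5.98 in rESC-RPC2, 5.87 to 6.53 in rESC-RPC1 and 4.82 to 5.10 in P-RPC. Tagln, transgelin, which binds actin in smooth muscle and cultured fibroblasts, had signals of 9319.6, 4897 and 6527 in rESC-RPC2, 2721, 1528 and 7731 in rESC-RPC1 and 6.18, 4.61 and 12.4 in P-RPC. It was high in both rESC-RPCs, and its mean was larger in rESC-RPC2, where type I and III collagen were lower, with no call between them (1.07, SE 0.54, adjusted p = 0.123). Acta2 (smooth muscle actin; log2 fold change 3.31, SE 0.51, adjusted p = 2.34e-04, in rESC-RPC2 and 2.17, SE 0.51, adjusted p = 0.00374, in rESC-RPC1 versus P-RPC) and Cnn1 (calponin; higher in rESC-RPC2 relative to P-RPC by at least 5.42-fold and higher in rESC-RPC1 by at least 3.32-fold) did likewise. Of the 7 members of the list that were tested, 3 were called higher and 2 lower in rESC-RPC2 and 4 higher and 1 lower in rESC-RPC1 versus P-RPC, and 0 were called higher and 2 lower in rESC-RPC2 relative to rESC-RPC1. Those 2, which differed between the rESC-RPCs in the direction of the collagens, were Prrx1, a mesenchymal transcription factor, by at least 1.28-fold (adjusted p = 0.00265), and Thy1, a surface protein of fibroblasts and neurons (-1.08, SE 0.24, adjusted p = 0.00387). Rgs5 went the other way from Tagln, with the lowest log2 fold changes of the list versus P-RPC. It was called lower in both rESC-RPC1 (-4.18) and rESC-RPC2 (-2.87). The part of mesenchymal and smooth muscle cells in the matrix genes was not tested.

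Between the groups, astrocyte and radial glia markers moved in the direction of the matrix genes. Of 8 tested, 3 were called higher and 1 lower in rESC-RPC2, 6 higher and 0 lower in rESC-RPC1, versus P-RPC, and 4 were called lower in rESC-RPC2 relative to rESC-RPC1. Within rESC-RPC1 the order differed. Mean log2 signals on replicates 1 to 3 were 9.36, 9.94 and 8.88 for the glia list and 8.44, 8.23 and 8.50 for the matrix genes. For the mesenchymal list they were 5.98, 5.87 and 6.53. Gfap, the intermediate filament of astrocytes, had signals of 616, 1471 and 849.8 in rESC-RPC2, 3472, 3748 and 3847 in rESC-RPC1 and 69.9, 49.1 and 58.4 in P-RPC. Of 12 neuron markers tested, 5 were called higher and 0 lower in rESC-RPC2, and 0 higher and 3 lower in rESC-RPC1, versus P-RPC. Between the rESC-RPCs, 9 were called higher and 0 lower in rESC-RPC2, with Tubb3 at 1.45 (SE 0.15, adjusted p = 4.03e-05). Among 9 endothelial markers 7 lay under the threshold on all 9 arrays, Pecam1 included. The 1 tested was Kdr, a VEGF receptor that retinal progenitors also express, with signals of 129.8, 119 and 125 in rESC-RPC2, 593, 981 and 369.7 in rESC-RPC1 and 6361, 6356 and 6722 in P-RPC, and it was called lower in all 3 comparisons. Of 10 primitive and visceral endoderm markers 8 lay under it throughout, Sox17 and Gata4 included. Of 7 chondrocyte markers, 6 did so, although type II, IX and XI collagens are also cartilage genes. The remaining one, Cytl1, had signals of 317, 415 and 505 in rESC-RPC2, 46.2, 40.7 and 66.7 in rESC-RPC1 and 3.96, 22.7 and 26 in P-RPC, higher in rESC-RPC2 by at least 3.3-fold relative to P-RPC (adjusted p = 6.56e-05) and to rESC-RPC1 (adjusted p = 0.00269). The part of glia and neurons in the matrix genes was not tested either.

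**Figure D5:**
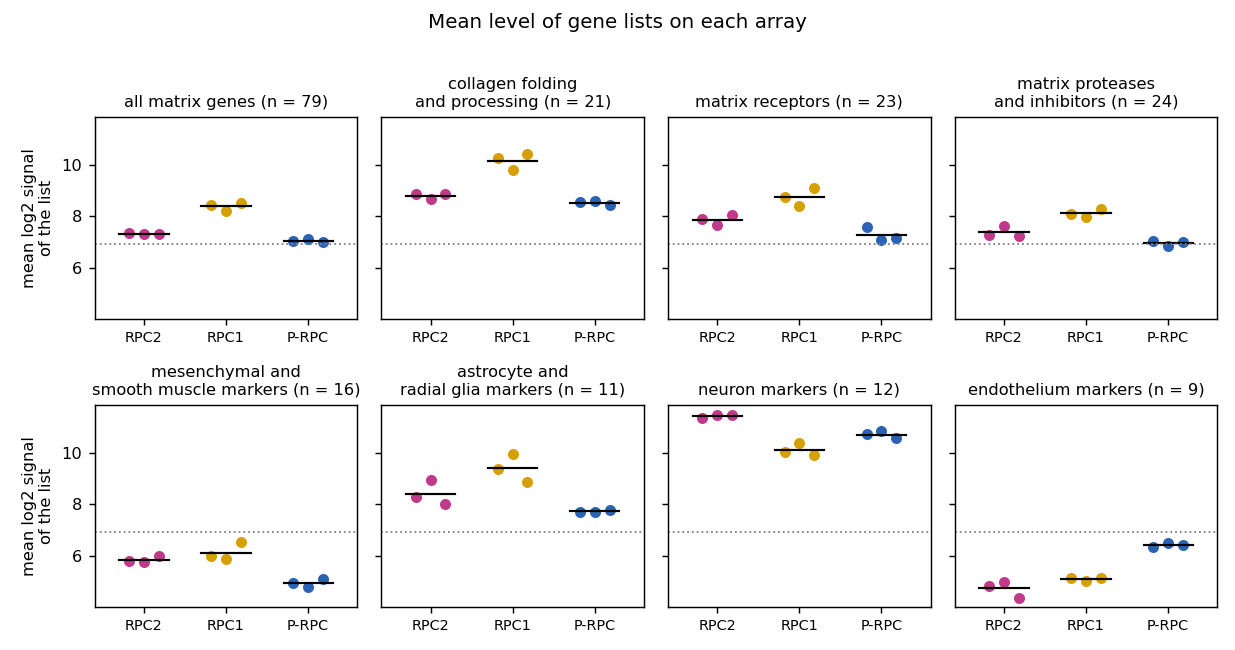
Mean log2 signal of gene lists on each array (y axis; points for replicates 1 to 3, black lines for group means, dotted line for the detection threshold; n is the number of genes on the array; RPC2 and RPC1 are rESC-RPC2 and rESC-RPC1). The matrix list is highest in rESC-RPC1 with no overlap (8.23 to 8.50), as are the lists of collagen processing and of matrix receptors, while neuron markers are highest in rESC-RPC2 and the mesenchymal list overlaps between rESC-RPC2 and rESC-RPC1.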

How the data were processed

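RNA of 9 samples, 3 per group, was hybridized to Affymetrix Rat Genome 230 2.0 arrays, and groups came from the sample titles. The deposited intensities are MAS 5.0 signals per probe set on a linear scale, which the authors computed in GeneSpring and scaled to a common level (medians 113 to 128). Log2 was taken after setting signals under 1 to 1, with no further scaling.

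Of 31042 probe sets other than the 57 controls, 20826 carry 1 gene symbol in the platform annotation, 436 several and 9780 none, and only the first kind was used. RefSeq (GRCr8) gave the gene ID of 20758 of them, and 0 symbols differed. For each gene the passing probe set with the highest mean was used.

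Fits used R 4.3.3 and limma 3.58.1 (lmFit, eBayes with a variance trend), with a mean for each group, all 9 arrays and no covariates. On simulated data of rESC-RPC1 versus P-RPC (200 of 9956 genes changed), calls recovered 94% of log2 changes of 1.5 and 100% of changes of 3, with 1 false call among 9756 genes. The simulated noise was independent between genes, whereas matrix genes of a culture moved together, and 21.5% of genes were called in the real comparison. These figures are therefore not error rates of the real calls. Same-numbered arrays were fitted as unpaired. Their r of deviations ran from -0.04 to 0.27 and was over 0.1 for 1 of 9 pairs, replicate 2 of rESC-RPC1 and of rESC-RPC2. Whether same-numbered cultures were grown together is not stated. Alternatives were other scalings, filters, probe set rules, variance models, samples in the fit, the methods' t-test, a replicate block and each array left out. The number of arrays limits the precision.

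The genes, lists, alternatives and naming rule were chosen with earlier results of these data known. By that rule, arrays' values are given for called matrix genes, at most 8 per list by largest change, and up to 4 called members and the first 3 of each companion or marker list may be named.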

Additional observations from a re-analysis of the deposited data

Results flagged for a closer look

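Against P-RPC, 3 matrix genes were called in opposite directions in the rESC-RPCs, higher in rESC-RPC1 and lower in rESC-RPC2, and for each the difference between the rESC-RPCs was itself called. Between them (rESC-RPC2 versus rESC-RPC1), the log2 fold change was -4.80 for Postn (adjusted p = 9.25e-06), -3.80 for Mgp (adjusted p = 1.14e-05) and -2.59 for Col4a6 (adjusted p = 3.29e-05), from limma over all genes. The 3 groups did not overlap for any of them. The rESC-RPC2 signals of all 3 genes lay under the detection threshold, so these values describe a fall to an unmeasured level, bounded at 12.6-fold for Postn, 3.02-fold for Mgp and 4.75-fold for Col4a6. The lower call of Postn in rESC-RPC2 versus P-RPC was lost without any 1 of 5 of the 9 arrays, and the higher call of Col4a6 in rESC-RPC1 without rESC-RPC1 replicate 2. With values under the threshold raised to it, the lower calls in rESC-RPC2 versus P-RPC were lost for Postn (-0.09, adjusted p = 0.855) and Mgp (-0.38, adjusted p = 0.228).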

How the results depend on the processing

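The calls changed direction under none of the alternatives run. A stricter filter (75th percentile), which left 34 of the 79 matrix genes to test, gave 28 genes called higher in rESC-RPC1 versus P-RPC in place of 43, 6 called lower in rESC-RPC2 versus P-RPC in place of 11, and 1 called higher in rESC-RPC2 versus rESC-RPC1 in place of 2. With no filter, 8 in place of 5 were called lower in rESC-RPC1 versus P-RPC. With the mean of each gene's probe sets, 1 was called higher in rESC-RPC2 versus rESC-RPC1. The methods' t-test after Benjamini-Hochberg called 24 lower in rESC-RPC2 versus rESC-RPC1, in place of 39. Leaving out each array in turn gave 23 to 25 genes called higher and 8 to 11 lower in rESC-RPC2 versus P-RPC, 37 to 43 higher and 3 to 5 lower in rESC-RPC1 versus P-RPC, and 1 to 2 higher and 29 to 38 lower in rESC-RPC2 versus rESC-RPC1. The lower count of 3 arose without any 1 of the P-RPC arrays, since Col9a1 and Col23a1 then had too few arrays at the threshold, and the higher count of 1 without any 1 of the rESC-RPC2 arrays, since Col19a1 did. When low values were set to the detection threshold, 17 gene comparisons lost their call, and the counts were 19 higher and 8 lower in rESC-RPC2 versus P-RPC, 39 higher and 4 lower in rESC-RPC1 versus P-RPC, and 2 higher and 35 lower in rESC-RPC2 versus rESC-RPC1. The other counts stayed within 1.5 times the reported ones under the remaining alternatives. With the replicate number as a block, the counts were 24 higher and 11 lower in rESC-RPC2 versus P-RPC, 43 higher and 5 lower in rESC-RPC1 versus P-RPC, and 2 higher and 39 lower in rESC-RPC2 versus rESC-RPC1, with the same call for all 171 gene comparisons. Signals under the threshold limit the folds of genes detected in 1 group only.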
